A study of Arabidopsis thaliana with 9 samples.

Results

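Histones are the proteins that package DNA. In the nucleosome, DNA is wrapped around an octamer of the core histones H2A, H2B, H3 and H4, and linker histone H1 binds where the DNA enters and leaves it. The canonical core histones are made mainly in S phase, when newly copied DNA must be packaged, and in plants most of their genes lack introns and yield polyadenylated mRNA, unlike most such genes in animals. Replacement variants are made outside S phase as well and mark particular chromatin: H3.3 replaces H3.1 in transcribed genes, H2A.Z sits at gene starts and in inducible genes, H2A.X is phosphorylated at DNA breaks, and H2A.W, a plant variant, marks heterochromatin.

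The messenger RNA levels of 41 core and linker histone genes of Arabidopsis thaliana were followed among the 22903 genes listed for 9 RNA sequencing libraries. The members were taken by locus code: 8 H4 genes, 5 H3.1 genes, 3 H3.3 genes, 4 canonical H2A genes, 2 H2A.X genes, 3 H2A.Z genes, 3 H2A.W genes, 10 H2B genes and 3 H1 genes. The 27 H4, H3.1, canonical H2A and H2B genes are called canonical here, and the 11 H3.3, H2A.X, H2A.Z and H2A.W genes variant. All 41 were present in the files, and 40 reached the mean of 1 CPM (the reads of a gene scaled to the same total in every library) that was required for testing. The exception was the H2B gene AT5G02570, at 0.432 to 0.785 CPM over the libraries. In their longest transcript in the TAIR10.1 annotation 22 members have no intron, all of them canonical, and the other 19, which include every variant and every H1 gene, have at least 1. Of the 22, AT1G07820 and AT5G59970 also have an annotated transcript with 1 intron.

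The libraries came from whole seedlings 14 days old, raised on MS medium in a cycle of 16 h light, 8 h dark. The genotypes were wild type (WT), aar2-1 and aar2-2, with 3 replicates each; the labels give neither the nature of the 2 alleles nor whether replicates were separate plant pools, so p-values measure only the spread between these libraries. The mutants are named for AAR2, whose counterpart in yeast helps to assemble the U5 particle of the spliceosome. AAR2 (AT1G66510) was at 7.64, 7.11 and 8.27 CPM in WT, at 7.33, 5.49 and 5.30 CPM in aar2-1 and at 5.28, 4.36 and 4.11 CPM in aar2-2. It was lower in aar2-2 (log2 difference −0.64 ± 0.13 SE, limma adjusted p = 0.00908), while aar2-1 overlapped WT (−0.31 ± 0.13, adjusted p = 0.101). Without aar2-1 replicate 1 the latter passed the threshold (adjusted p = 0.0377). An annotated gene on the other strand overlaps AAR2, and whether counting used strand is not given in the sources used here.

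Libraries held 24471852 to 35267559 reads over genes, with the 3 WT libraries the shallowest, so depth and genotype cannot be told apart. The 6 shoot markers, all detected, summed to 47729 to 57853 CPM in WT, 48925 to 50344 CPM in aar2-1 and 44771 to 52299 CPM in aar2-2. By limma 1 of the 6 fell in aar2-1 and 3 in aar2-2, beside 13.6% and 9.4% of all genes called lower. All of them were genes of light-harvesting proteins: LHB1B1 in both mutants (−0.82 and −1.34 on the log2 scale) and CAB1 and CAB2 in aar2-2 (−0.52 and −1.03). WT replicate 2 stood far above the other WT libraries for these genes, with LHB1B1 at 1160, 1804 and 1072 CPM in WT, and so enlarged the differences. The mutant libraries in these calls still lay wholly below WT. Of the 6 differences in each mutant 4 were negative and 2 positive. The 2 were RBCS1A, the highest of the 6, wholly above WT in both mutants (0.22 and 0.31), and RBCS3B (0.03 and 0.07). Neither was called. The 6 root markers, all detected, summed to 8.01 to 11.7 CPM in WT, 5.73 to 8.13 CPM in aar2-1 and 5.46 to 8.25 CPM in aar2-2. Of the 2 root markers tested, PHT1;1 fell in both mutants (−0.67 and −0.46) and PRP3 was not called. The part of these shifts in the histone values was not tested. All 4 listed flower and pollen markers stayed under 1 CPM in every library. As whole seedlings were sampled, fewer cells of a type and less RNA per cell cannot be told apart.

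The regions before the genes are shown first, since members with a common element can be followed together through the results. The 250 bases before each annotated transcript start were searched on both strands for 4 elements known from plant histone or cell cycle promoters: the octamer CGCGGATC, the hexamer ACGTCA, an E2F site in the forms TTTCCCGC, TTTGGCGC, TTTCGCGC and TTTGCCGC, and the telo box AAACCCTAA. The octamer stood in 10 of the 41 histone promoters (24.4%), against 32 of all 22766 promoters (0.141%). The other 22 promoters that hold it belong to genes not annotated as histone genes, among them those of actin 2 (ACT2) and calmodulin 2 (CAM2). The hexamer stood in 11 of 41 (26.8%), against 8.17% of all promoters.

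The families did not share these elements evenly. The octamer was found before 3 of 5 H3.1 genes, 2 of 4 canonical H2A genes, 2 of 8 H4 genes, the H3.3 gene AT4G40040, the H2A.W gene HTA6 and the H1 gene AT1G06760, but before 0 of 10 H2B genes. The hexamer was found before 8 of 10 H2B genes, and otherwise before 2 H3.1 genes and the H3.3 gene AT5G10980. The E2F site was present in 3 of 41 (7.32%, against 1.52% of all promoters), namely 2 H4 genes and HTB2. The telo box was found in 0 of 41, against 2.22% of all promoters. A match is a description of the letters, and no match says only that these letters are not in this window. No match of 1 element overlapped a match of another before these 41 genes.

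**Figure D1:**
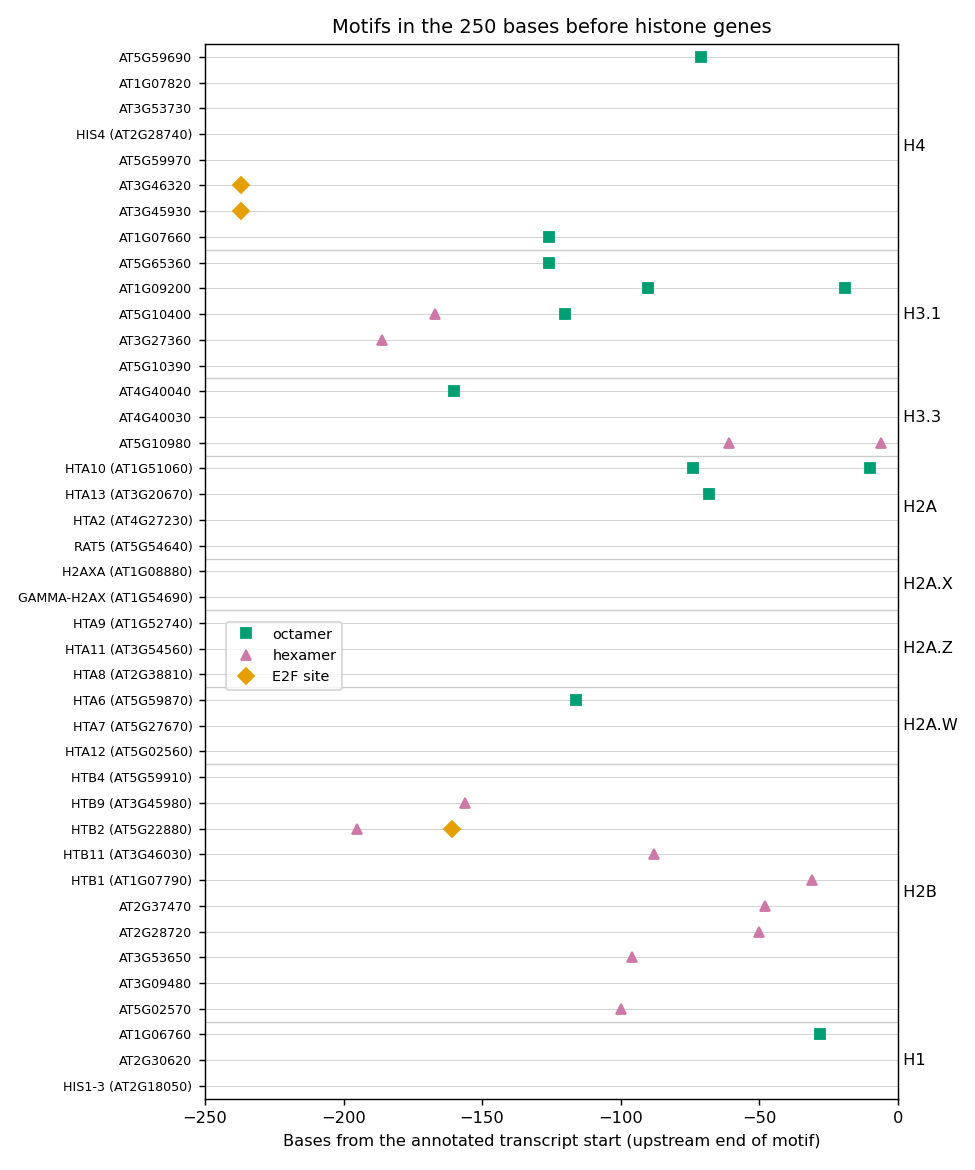
Position of each match of the octamer, the hexamer and the E2F site in the 250 bases before the annotated transcript start of 41 histone genes, 1 row per gene, grouped by family; the horizontal axis counts bases from the start to the upstream end of the motif. Octamers lie before 10 genes and hexamers before 11, of which 8 are H2B genes.

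For 7 genes the 160 bases before the start are printed 5′ to 3′ on the gene's strand, read from the TAIR10.1 genome, with octamers (CGCGGATC or its reverse complement) or hexamers in capitals. They are the H4 gene highest per kb and an H2A.W gene, both of which rose in aar2-2, an H3.1 and an H2A gene with a pair of octamers each, 2 H2B genes with the hexamer that fell in aar2-1, and the member with the highest level per kb. They lie at chr5:24051314-24051473 (+) for AT5G59690 (H4), chr1:2972335-2972494 (−) for AT1G09200 (H3.1), chr5:24116221-24116380 (−) for HTA6 (H2A.W), chr1:18926651-18926810 (+) for HTA10 (H2A), chr3:16898014-16898173 (−) for HTB9 and chr3:16914132-16914291 (−) for HTB11 (H2B), and chr4:18558803-18558962 (−) for AT4G40040 (H3.3).
AT5G59690: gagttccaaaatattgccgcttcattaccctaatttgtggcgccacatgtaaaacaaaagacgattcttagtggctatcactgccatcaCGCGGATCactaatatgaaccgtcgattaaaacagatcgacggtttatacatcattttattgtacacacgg
AT1G09200: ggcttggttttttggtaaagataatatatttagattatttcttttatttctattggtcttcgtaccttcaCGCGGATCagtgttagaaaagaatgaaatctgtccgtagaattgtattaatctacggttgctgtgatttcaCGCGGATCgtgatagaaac
HTA6: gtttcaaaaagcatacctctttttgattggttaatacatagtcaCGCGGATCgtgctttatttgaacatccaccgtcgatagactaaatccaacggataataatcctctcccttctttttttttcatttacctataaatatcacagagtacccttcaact
HTA10: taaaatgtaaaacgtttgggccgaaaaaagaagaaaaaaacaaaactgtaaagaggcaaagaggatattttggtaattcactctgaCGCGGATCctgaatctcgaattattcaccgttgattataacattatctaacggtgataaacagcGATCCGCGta
HTB9: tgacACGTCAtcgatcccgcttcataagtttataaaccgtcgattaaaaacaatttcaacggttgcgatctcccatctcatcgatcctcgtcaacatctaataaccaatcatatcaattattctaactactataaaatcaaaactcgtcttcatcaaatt
HTB11: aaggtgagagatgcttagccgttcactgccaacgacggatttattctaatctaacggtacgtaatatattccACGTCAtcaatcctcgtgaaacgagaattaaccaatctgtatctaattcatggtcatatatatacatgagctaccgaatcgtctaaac
AT4G40040: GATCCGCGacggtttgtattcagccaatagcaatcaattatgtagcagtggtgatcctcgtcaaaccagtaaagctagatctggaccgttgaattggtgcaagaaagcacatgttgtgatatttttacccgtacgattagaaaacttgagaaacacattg
In the pair with 2 octamers, AT1G09200 carries both in the same orientation, whereas in HTA10 the one nearer the start is in reverse complement.

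The families differed in level, and so did the genes within each. Per kb of the longest annotated transcript, the highest member was the H3.3 gene AT4G40040, at a mean over all libraries of 249.6 CPM per kb, and the lowest was AT5G02570 at 1.15 CPM per kb. The highest members of the other families were HTB9 (H2B, 142 CPM per kb), AT1G06760 (H1, 125), AT5G59690 (H4, 121), AT5G65360 (H3.1, 106), HTA9 (H2A.Z, 99.6), HTA6 (H2A.W, 96.4), HTA10 (H2A, 76.5) and H2AXA (H2A.X, 51.0). Summed over genes, canonical members made up 49.3% of histone CPM in WT, variant members 38.8% and H1 members 11.9%, with H3.3 alone at 25.2%.

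**Figure D2:**
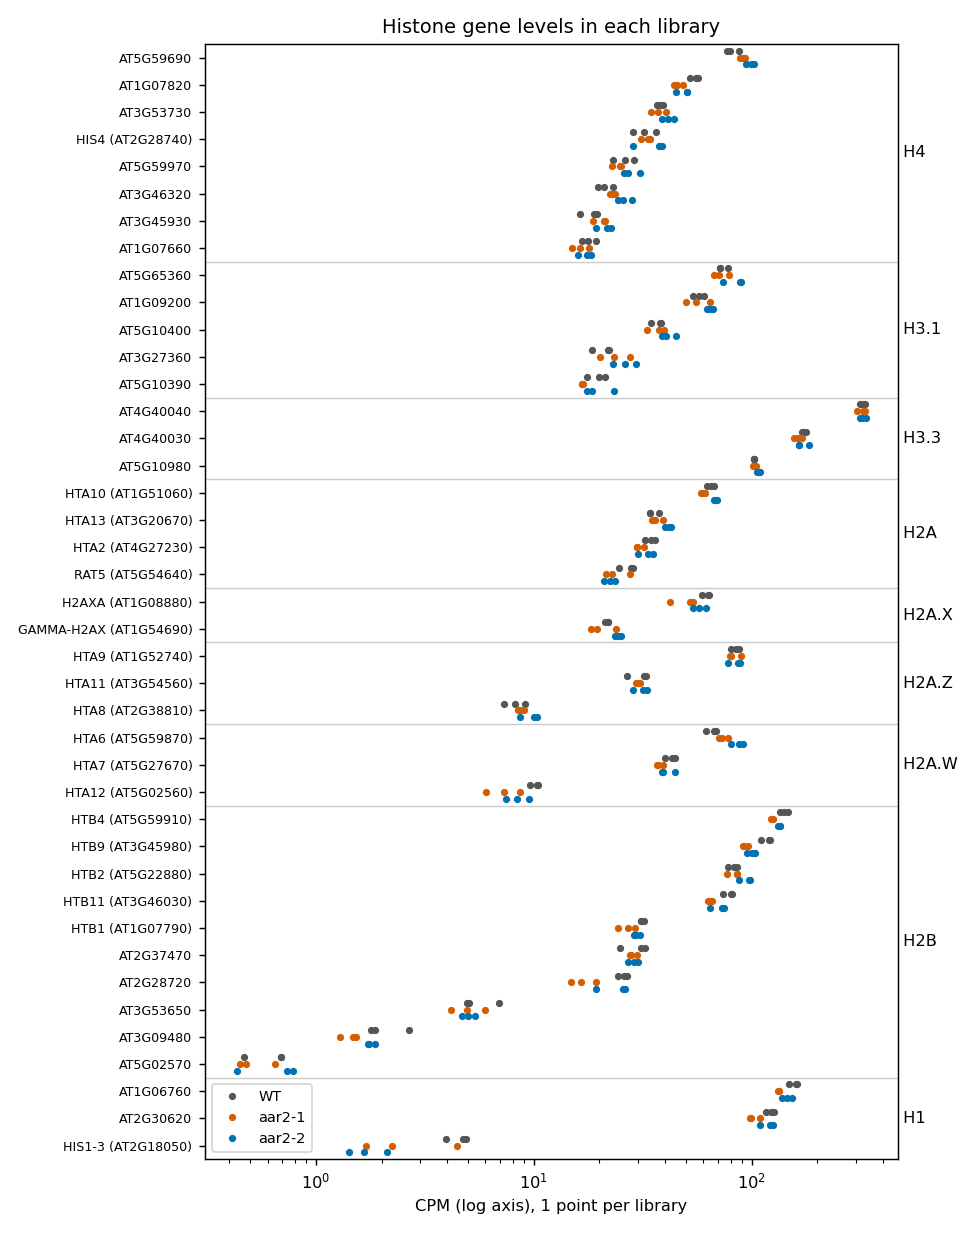
CPM (log axis) of each of the 41 histone genes, 1 point per library and 3 libraries per genotype, grouped by family and ordered by the WT mean. Levels run from 0.432 CPM for AT5G02570 to 335 CPM for AT4G40040, and the genotypes lie close together for most genes.

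In aar2-1, histone genes that changed were all lower: 10 of 40 tested members fell and 0 rose by limma, edgeR or DESeq2 (25%, against 25.1% of all 18838 genes tested in this comparison, of which 11.5% were higher and 13.6% lower). The members' share of calls was that of all genes. Of the 40 differences 30 were negative, with a median of −0.09 on the log2(CPM + 1) scale, beside a median of 0.00 (−0.00366) and 50.6% negative among all genes. In 16 members all 3 aar2-1 libraries lay below all 3 WT libraries (21.8% of all genes did) and in 2 they lay above (19.8%). At an unadjusted p under 0.05 limma put 2 members higher. The 10 that fell were 5 H2B genes, 2 H1 genes, 1 H4 gene, the H2A.X gene H2AXA and the H2A.W gene HTA12. The count rested on few libraries: it was 2 without WT replicate 1, and 5 without WT replicate 2, WT replicate 3, aar2-1 replicate 1 or aar2-1 replicate 3. The count over all genes also fell without WT replicate 1, as given in the closing section.

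In aar2-2, 6 of 40 members changed (15%, against 21.5% of all genes, of which 12.1% were higher and 9.4% lower). The H4 genes AT3G46320 and AT5G59690, the H2A gene HTA13 and the H2A.W gene HTA6 rose, and HTB9 and the H1 gene HIS1-3 fell. Differences were positive in 20 members and negative in 20, with a median of 0.00 (0.000888), beside a median of 0.03 over all genes. Libraries did not overlap in 10 members higher in aar2-2 (25.1% of all genes) and 6 members lower (19.2%). The split of calls moved with scaling: it was 3 higher and 4 lower with TMM, and 3 higher and 3 lower with edgeR or DESeq2, while over all genes the share of calls that were higher went from 56.3% to 45.7% with TMM. The count was 2 without WT replicate 1 or aar2-2 replicate 1, and 3 without WT replicate 2 or aar2-2 replicate 2. As in aar2-1, the count over all genes also fell without WT replicate 1. HTB9 was the 1 member called in both mutants, which share the WT libraries, and 15 members were called in at least 1.

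**Figure D3:**
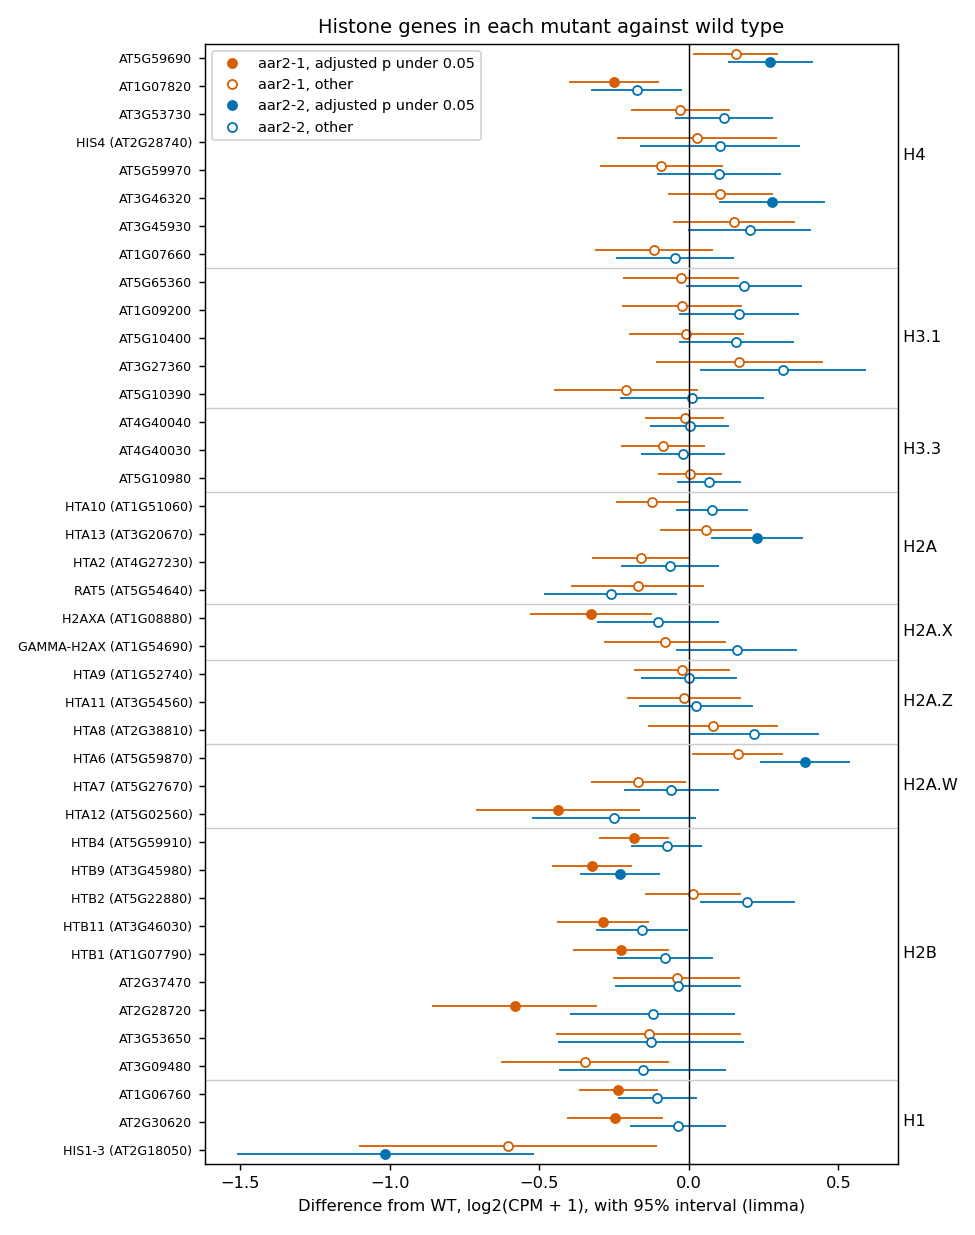
Difference of each mutant from WT on the log2(CPM + 1) scale, with its 95% interval from limma, for the 40 tested histone genes grouped by family; filled points have an adjusted p under 0.05. In aar2-1 the 10 filled points all lie below 0, and in aar2-2, 4 lie above 0 and 2 below.

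H2B, which pairs with H2A in the nucleosome, is the largest family here and had the most calls in aar2-1. Of 9 tested genes 5 fell, and 8 of 9 differences were negative. Among all genes 13.6% were called lower and 50.6% were negative. HTB9 was at 121, 111 and 119.6 CPM in WT, at 91.3, 92.0 and 96.5 CPM in aar2-1 and at 100.1, 104 and 94.8 CPM in aar2-2. Both mutants lay wholly below WT, by −0.32 ± 0.06 SE in aar2-1 (limma adjusted p = 0.00548) and −0.23 ± 0.06 in aar2-2 (adjusted p = 0.0256). The first call held in all 18 alternative settings. The second was lost without WT replicate 1 (adjusted p = 0.0986), WT replicate 3 (0.0767), aar2-2 replicate 1 (0.0608) or aar2-2 replicate 3 (0.0836). Exons of AT3G45970 overlap HTB9 on the other strand, and exons of AT3G07315 overlap HTB9 as well.

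AT2G28720 showed the largest fall of a canonical gene in aar2-1. It was at 26.6, 25.9 and 24.3 CPM in WT, at 16.5, 19.2 and 14.9 CPM in aar2-1, and at 26.1, 25.7 and 19.2 CPM in aar2-2. The aar2-1 libraries lay below WT without overlap (−0.58 ± 0.12 SE, limma adjusted p = 0.00958, held in all 18 alternatives), whereas aar2-2 overlapped WT (−0.12, 95% interval −0.40 to 0.16, adjusted p = 0.513). The difference between the mutants was 0.46 ± 0.12, and it did not pass the threshold (adjusted p = 0.189).

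HTB11 was at 80.3, 74.2 and 81.4 CPM in WT, 65.4, 62.9 and 64.2 CPM in aar2-1, and 74.3, 73.3 and 64.2 CPM in aar2-2. The aar2-1 libraries were below WT (−0.29 ± 0.07 SE, limma adjusted p = 0.0153) except that the call was lost without WT replicate 1 (0.062) or WT replicate 3 (0.054), and aar2-2 overlapped WT at 1 library (−0.16 ± 0.07, adjusted p = 0.134, called with TMM at 0.0454). HTB4, the H2B gene with the most reads, was at 147, 141 and 134 CPM in WT, 123, 125 and 124 CPM in aar2-1 and 132, 135 and 134 CPM in aar2-2. HTB1 was at 32.2, 31.0 and 31.1 CPM in WT, 29.1, 26.9 and 24.3 CPM in aar2-1 and 30.7, 28.9 and 29.4 CPM in aar2-2. Both fell slightly in aar2-1 with no overlap (HTB4 −0.18 ± 0.05, limma adjusted p = 0.0317, and HTB1 −0.23 ± 0.07, adjusted p = 0.043). Those 2 calls were the least stable of the family, past the threshold in 9 and 8 of 18 alternatives, and without WT replicate 1 their adjusted p rose to 0.128 and 0.13. The other tested H2B genes, HTB2, AT2G37470, AT3G53650 and AT3G09480, were not called in either mutant.

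Linker histone H1, which compacts the fibre between nucleosomes, had 2 of its 3 genes lower in aar2-1, beside 13.6% of all genes. AT1G06760 was at 162, 159 and 149 CPM in WT, 132, 134 and 133 CPM in aar2-1, and 145, 154 and 138 CPM in aar2-2, and AT2G30620 was at 123, 126 and 116 CPM, 99.3, 109.7 and 98.3 CPM, and 125, 122 and 109 CPM in the same order. In aar2-1 all libraries of both genes lay below WT (−0.24 ± 0.06 SE, limma adjusted p = 0.0182, and −0.25 ± 0.07, adjusted p = 0.0315). In aar2-2 both overlapped WT (−0.11, 95% interval −0.24 to 0.03, and −0.04, −0.20 to 0.12). Without WT replicate 1, WT replicate 2 or aar2-1 replicate 1 the aar2-1 calls were lost (adjusted p = 0.0791, 0.0509 and 0.0519 for AT1G06760 and 0.0986, 0.091 and 0.0927 for AT2G30620), and AT2G30620 also lost its call without aar2-1 replicate 3 (0.0762). Exons of each lie over a listed neighbour on the opposite strand.

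HIS1-3, a minor H1 that is induced by drought and low light, was called in aar2-2 and not in aar2-1. It was at 3.96, 4.73 and 4.86 CPM in WT, 1.71, 4.42 and 2.24 CPM in aar2-1 and 1.67, 1.42 and 2.13 CPM in aar2-2, on 49 to 134 reads per library. The aar2-2 libraries were all below WT, and the difference was the largest of any member (−1.01 ± 0.22 SE, limma adjusted p = 0.013, held in all 18 alternatives). In aar2-1 replicate 2 lay within WT while the other replicates lay below. With it the difference was −0.60 ± 0.22 (adjusted p = 0.0733), and without it −0.90 (adjusted p = 0.00381).

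H4, whose genes in Arabidopsis encode the same protein, did not move as a block. AT5G59690, the highest H4 gene per kb and one with an octamer in the sequence shown, was at 79.7, 77.2 and 87.4 CPM in WT, 90.8, 93.1 and 88.5 CPM in aar2-1, and 103, 99.0 and 93.9 CPM in aar2-2. Both mutants lay above WT, by 0.27 ± 0.06 SE in aar2-2 (limma adjusted p = 0.0163) and by 0.16 ± 0.06 in aar2-1, which was not called (adjusted p = 0.0974, called with TMM at 0.0465). AT3G46320 was at 21.0, 19.7 and 23.2 CPM in WT, 23.1, 23.5 and 22.3 CPM in aar2-1 and 28.2, 25.6 and 24.3 CPM in aar2-2, above WT in the latter alone (0.28 ± 0.08, adjusted p = 0.0334). Both aar2-2 calls were lost without WT replicate 1 (adjusted p = 0.0663 for AT5G59690 and 0.1 for AT3G46320), WT replicate 2 (0.0532 and 0.102), aar2-2 replicate 1 (0.0549 and 0.108) or aar2-2 replicate 2 (0.0535 and 0.0757).

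AT1G07820 was the H4 gene that fell. It was at 56.8, 52.4 and 55.8 CPM in WT, 45.6, 44.1 and 48.5 CPM in aar2-1, and 50.3, 50.6 and 45.0 CPM in aar2-2. All 6 mutant libraries lay below WT, by −0.25 ± 0.07 SE in aar2-1 (limma adjusted p = 0.0249) and −0.17 ± 0.07 in aar2-2, which was not called (adjusted p = 0.093, but 0.0396 with TMM, 0.0403 with edgeR and 0.0425 with DESeq2). The aar2-1 call was lost without WT replicate 1 (0.0947), WT replicate 3 (0.0733), aar2-1 replicate 1 (0.0679) or aar2-1 replicate 2 (0.0634). Near-identical copies make single H4 genes less certain: 28.5% of the 50-base stretches of AT1G07660 and 19.4% of those of AT1G07820 occur in another annotated gene, mainly each other. The share was 27.9% for AT3G46320 and 25.7% for AT3G45930, which share with each other, and 8.48% for AT5G59690, which shares with AT5G59970. The remaining H4 genes, HIS4 and AT3G53730 among them, were not called in either mutant.

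H3.1, the canonical H3 loaded during replication, and H3.3, its replacement, gave 0 calls in either mutant among 8 genes by limma, edgeR or DESeq2. At an unadjusted p under 0.05 limma counted 0 of them in aar2-1 and 1, AT3G27360, in aar2-2. In aar2-2 all 5 H3.1 differences were positive (median 0.17), and 3 of the genes lay wholly above WT. For H3.3, 2 of 3 were positive (median 0.002) and 1 lay wholly above. Among all genes 55.1% were positive and 25.1% lay wholly above. In aar2-1, 4 of the 5 H3.1 differences were negative (median −0.02). The highest H3.1 gene, AT5G65360, was at 71.3, 71.8 and 77.4 CPM in WT, 78.7, 67.3 and 71.0 CPM in aar2-1, and 88.6, 89.5 and 73.8 CPM in aar2-2. Its groups overlapped, with differences of −0.03 (95% interval −0.22 to 0.17) in aar2-1 and 0.18 (−0.01 to 0.38) in aar2-2. AT4G40040, the H3.3 gene with the highest level of all members, was at 315, 331 and 322 CPM in WT, 303, 325 and 331 CPM in aar2-1 and 320.3, 335 and 314 CPM in aar2-2. Its groups overlapped, and the 95% intervals were −0.15 to 0.12 in aar2-1 and −0.13 to 0.14 in aar2-2.

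Among H2A genes the calls went in both directions. HTA6 (H2A.W) rose most in aar2-2: it was at 68.3, 61.7 and 66.9 CPM in WT, 77.6, 72.7 and 70.6 CPM in aar2-1 and 90.8, 87.4 and 80.8 CPM in aar2-2. All 6 mutant libraries lay above WT, and those of aar2-2 lay above those of aar2-1. The difference was 0.39 ± 0.07 SE in aar2-2 (limma adjusted p = 0.00537, held in all 18 alternatives) and 0.16 ± 0.07 in aar2-1, which was not called there or in any alternative (adjusted p = 0.104, lowest 0.0524).

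Its relative HTA12 fell instead. HTA12 was at 10.5, 10.4 and 9.65 CPM in WT, 7.26, 8.64 and 6.04 CPM in aar2-1 and 8.40, 9.47 and 7.43 CPM in aar2-2. All mutant libraries lay below WT, with differences of −0.44 ± 0.12 SE in aar2-1 (limma adjusted p = 0.0279) and −0.25 ± 0.12 in aar2-2 (adjusted p = 0.17). The call was lost without any 1 of WT replicate 1 (0.0902), WT replicate 2 (0.0714), WT replicate 3 (0.0538), aar2-1 replicate 1 (0.0708) or aar2-1 replicate 3 (0.076). HTA12 and the H2B gene AT5G02570 overlap on opposite strands, and all of the 50-base stretches of AT5G02570 lie within HTA12, so reads of these genes may not be separable. HTA7, the other H2A.W gene, was not called.

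H2AXA, 1 of the 2 genes for the variant phosphorylated at DNA breaks, was at 62.8, 59.3 and 63.5 CPM in WT, 53.7, 52.2 and 42.3 CPM in aar2-1 and 61.5, 57.4 and 53.9 CPM in aar2-2. It fell in aar2-1 without overlap (−0.33 ± 0.09 SE, limma adjusted p = 0.0275), and aar2-2 overlapped WT (−0.10 ± 0.09, adjusted p = 0.445). The call was lost without WT replicate 1 (0.0888), WT replicate 3 (0.0805) or aar2-1 replicate 3 (0.0528). GAMMA-H2AX, the other gene of this type, was not called in either mutant (−0.08 and 0.16).

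Among canonical H2A genes only HTA13, whose exons overlap those of AT3G20680 on the other strand, was called. It was at 34.0, 34.0 and 37.6 CPM in WT, 35.9, 34.8 and 39.3 CPM in aar2-1 and 42.4, 41.7 and 40.0 CPM in aar2-2. The aar2-2 libraries lay above WT (0.23 ± 0.07 SE, limma adjusted p = 0.041), but the call was past the threshold in 6 of 18 alternatives and was lost with TMM (0.0654), with edgeR (0.0635), with DESeq2 (0.078), and without WT replicate 1 (0.134), WT replicate 2 (0.112), aar2-1 replicate 1 (0.0526), aar2-2 replicate 1 (0.112), aar2-2 replicate 2 (0.108) or aar2-2 replicate 3 (0.0659). HTA10, the highest canonical H2A gene, was at 67.3, 62.2 and 65.0 CPM in WT, 61.1, 59.0 and 58.4 CPM in aar2-1 and 69.5, 68.4 and 67.3 CPM in aar2-2. It lay below WT in aar2-1 (−0.12 ± 0.05, adjusted p = 0.127) and overlapped WT in aar2-2 (0.08 ± 0.05, adjusted p = 0.33), and neither was called.

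H2A.Z gave 0 calls in either mutant in its 3 genes by limma, edgeR or DESeq2, with 0 and 1 at an unadjusted p under 0.05 by limma. HTA9, the highest of them, was at 85.0, 80.7 and 87.2 CPM in WT, 80.1, 79.4 and 89.4 CPM in aar2-1 and 86.8, 88.6 and 77.6 CPM in aar2-2. The groups overlapped, with 95% intervals of −0.18 to 0.14 in aar2-1 and −0.16 to 0.16 in aar2-2.

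Replication-dependent genes and replacement variants were then set side by side by class. In aar2-1, 6 of 26 tested canonical genes and 2 of 11 variant genes fell, with median differences of −0.10 and −0.02, beside 13.6% of all genes called lower. In aar2-2, 3 canonical genes rose and 1 fell, and 1 variant gene rose, with medians of 0.04 and 0.00 (0.00247), beside 12.1% of all genes called higher and 9.4% lower. By introns, 6 of 21 tested members without an intron and 4 of 19 with an intron fell in aar2-1; 2 and 2 rose, and 1 and 1 fell, in aar2-2. All members without an intron are canonical, so the intron split also divides the protein classes. Among canonical genes alone, 6 of 21 without an intron and 0 of 5 with an intron fell in aar2-1 (medians −0.04 and −0.12). In aar2-2, 2 of the 21 rose and 1 fell, and 1 of the 5 rose. The splits by protein class and by introns over all members gave calls in each group. No test of the difference between groups was made.

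Levels were also summed over each class in each library. Canonical members summed to 1196, 1121 and 1202 CPM in WT, 1117, 1079 and 1077 CPM in aar2-1, and 1253, 1227 and 1131 CPM in aar2-2. Variant members summed to 922, 921 and 927 CPM in WT, 890.4, 906 and 892 CPM in aar2-1, and 973, 956 and 904 CPM in aar2-2. On this CPM scale aar2-1 lay below WT without overlap in both classes, and aar2-2 overlapped WT. The gap was narrow for canonical members (1117 against 1121 CPM). For variant members it depended on scaling. Division by the TMM factors, 0.973 for aar2-1 replicate 3 and 1.012 for WT replicate 3, would make these variant sums overlap. The ratio of means to WT was 0.930 for canonical and 0.971 for variant members in aar2-1, and 1.03 and 1.02 in aar2-2.

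By family, the summed level of H2B in aar2-1 was 0.863 of WT, with 445, 446 and 439 CPM against 531, 493 and 517 CPM, and H1 was at 0.841 of WT. H2A.X was at 0.837, canonical H2A at 0.934, and H4, H3.1, H3.3, H2A.Z and H2A.W lay between 0.979 and 1.00. In aar2-2, H2A.W stood at 1.15 of WT, H3.1 at 1.13 and H4 at 1.09, beside 0.949 for H2B and 0.941 for H1. The other families lay between 0.981 and 1.02 there. The ratio of 2 families within a library does not depend on the scaling of that library. The H2B to H4 ratio of summed CPM, chosen after the values were seen, was 1.84, 1.81 and 1.67 in WT, 1.50, 1.53 and 1.54 in aar2-1, and 1.49, 1.55 and 1.60 in aar2-2. All 6 mutant libraries lay below all 3 WT libraries. The H3.1 to H3.3 ratio, chosen in the same way, was 0.361, 0.321 and 0.362 in WT, 0.398, 0.322 and 0.337 in aar2-1, and 0.412, 0.394 and 0.368 in aar2-2, above WT in aar2-2 and overlapping it in aar2-1. The canonical to variant ratio overlapped WT in both mutants, at 1.30, 1.22 and 1.30 in WT. It was 1.25, 1.19 and 1.21 in aar2-1, and 1.29, 1.28 and 1.25 in aar2-2. The H1 to H4 ratio lay below WT in both mutants, and the H2A.Z to H4 ratio in aar2-2 alone.

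**Figure D4:**
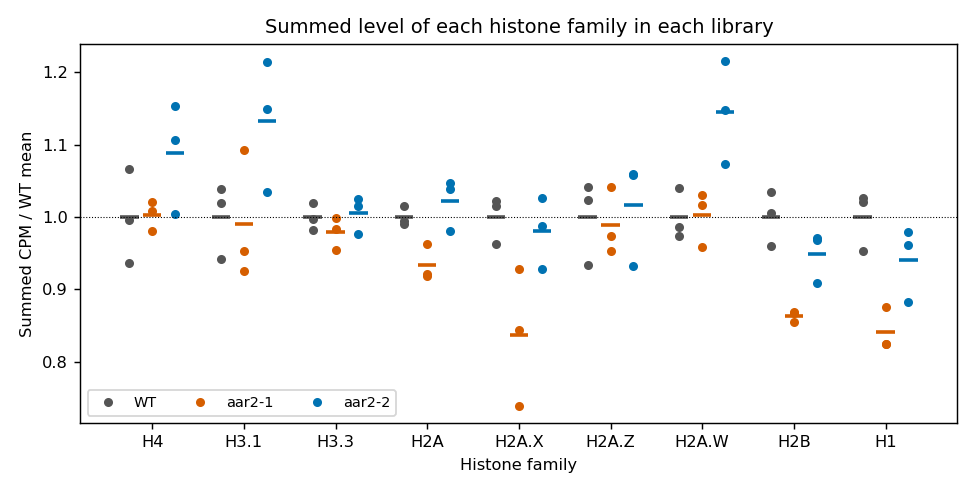
Summed CPM of each histone family divided by its WT mean, 1 point per library and a bar for the mean of 3 libraries. H2B, H1, canonical H2A and H2A.X lie below WT in every aar2-1 library. Every family except H2B, H1 and H2A.X has its highest mean in aar2-2.

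Between the mutants themselves, 0 of 40 members were called by limma, edgeR or DESeq2 (0.0212% of all genes were called by limma, 0.00531% higher and 0.0159% lower), with a lowest limma adjusted p of 0.189 and 9 members at an unadjusted p under 0.05. The values leaned 1 way all the same: 38 of 40 members were higher in aar2-2, with a median of 0.14, beside 60.6% of all genes and a median of 0.04. With TMM scaling it was 33 of 40 and a median of 0.09, beside 49.1% of all genes and a median of 0.00 (−0.00321). In 13 members the aar2-2 libraries lay wholly above those of aar2-1 (13.7% of all genes) and in 0 wholly below (6.12%). The exceptions to the lean were RAT5 (−0.09 ± 0.10 SE) and HIS1-3 (−0.41 ± 0.22). These signs and those against WT rest on the same libraries and are not separate evidence.

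Members with the printed elements can be followed through these values as a description. Among all genes 11.5% were called higher and 13.6% lower in aar2-1, and 12.1% higher and 9.4% lower in aar2-2. Of the 10 genes with an octamer, 1 fell and 0 rose in aar2-1 (median −0.02), and 3 rose and 0 fell in aar2-2 (median 0.16); the 3 were AT5G59690, HTA13 and HTA6. Of the 10 tested genes with a hexamer, 4 fell in aar2-1 (median −0.09) and 1 fell in aar2-2 (median −0.06); all 4 were H2B genes. For the hexamer, found before 8 of 10 H2B genes, family and element largely coincide, and the part of each was not tested. Of the H2B genes without it, HTB4 also fell in aar2-1 (−0.18) and AT3G09480 was not called (−0.35). Outside H2B, the hexamer genes AT3G27360, AT5G10400 and AT5G10980 were not called there (0.17, −0.01 and 0.005). The octamer was spread over 6 families, each of which also has members without it. Within H4, AT3G46320 without an octamer also rose in aar2-2 (0.28), and AT1G07660 with an octamer was not called (−0.05). The part of the octamer in these values was not tested.

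Genes that act beside histones in dividing cells were taken from lists chosen by function. Their counts stand beside 11.5% of all genes called higher and 13.6% lower in aar2-1, and 12.1% higher and 9.4% lower in aar2-2. Of 26 DNA replication genes, 2 rose and 1 fell in aar2-1, and 12 rose and 0 fell in aar2-2, with medians of 0.09 and 0.30. MCM5, a subunit of the replicative helicase, rose in both (0.33 ± 0.09 SE, limma adjusted p = 0.0238, and 0.53 ± 0.09, adjusted p = 0.00448), as did ICU2, the catalytic subunit of DNA polymerase alpha (0.33 and 0.42). Summed CPM of this list was 475 to 509 in WT, 481 to 583 in aar2-1 and 573 to 634 in aar2-2. Replication genes and canonical histone genes thus differed in sign of their medians in aar2-1. By family, the canonical medians were 0.00 (−0.000269) for H4, −0.02 for H3.1, −0.14 for H2A and −0.23 for H2B.

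Of 22 histone chaperone and exchange genes, 2 rose and 1 fell in aar2-1, and 6 rose and 0 fell in aar2-2, with medians of 0.08 and 0.14. The ones that rose in aar2-2 included NRP1 and NRP2, chaperones of H2A and H2B (0.40 and 0.41), and the chaperones NAP1;1 and NAP1;2 (0.24 and 0.23). The gene that fell in aar2-1 was ARP6, a subunit of the complex that deposits H2A.Z (−0.27, limma adjusted p = 0.0278). Of 9 genes of the E2F and retinoblastoma pathway, 1 rose in each mutant, DPA, a dimerization partner of E2F (0.40 and 0.48).

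Of 17 mitosis genes, 7 rose in aar2-1 and 8 in aar2-2 (41.2% and 47.1%, against 11.5% and 12.1% of all genes), with 0 lower and medians of 0.29 and 0.33. SYP111, the syntaxin of the cell plate, was at 22.4, 24.5 and 25.9 CPM in WT, 40.0, 34.3 and 36.2 CPM in aar2-1 and 40.8, 40.5 and 36.8 CPM in aar2-2. It rose in both (0.58 ± 0.08 SE, limma adjusted p = 0.00149, and 0.68 ± 0.08, adjusted p = 0.00113), as did the mitotic cyclin genes CYCB1;1 and CYC1BAT and the Aurora kinase gene AUR1. Summed CPM of this list was 179 to 196 in WT, 221 to 278 in aar2-1 and 239.8 to 265 in aar2-2. The mitosis list was thus above WT without overlap in the same aar2-1 libraries in which the canonical histone sum was below it. Within that sum H4 and H3.1 stood at 1.00 and 0.991 of WT, and H2A and H2B at 0.934 and 0.863. The part of dividing cells in the histone values was not tested.

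**Figure D5:**
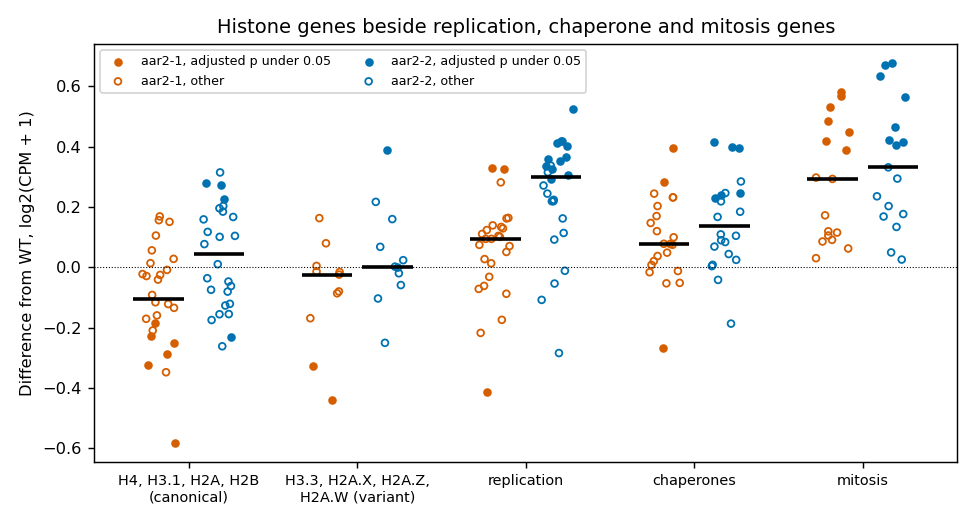
Differences from WT on the log2(CPM + 1) scale for canonical and variant histone genes and for lists of replication, chaperone and mitosis genes, 1 point per gene, with a bar at the median; filled points have an adjusted p under 0.05. In aar2-1 the canonical median is −0.10 and the mitosis median 0.29, and in aar2-2 they are 0.04 and 0.33.

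Of 8 further histone genes outside the 41, 5 were listed in the files and 2 reached 1 CPM. HTR12, the centromeric H3, was not called (0.15 and 0.22). HTR11 (AT5G65350), an H3-type gene, was at 0.776, 0.974 and 1.27 CPM in WT, 4.09, 3.09 and 4.09 CPM in aar2-1 and 3.58, 3.14 and 3.18 CPM in aar2-2. It rose in both mutants with no overlap (1.24 ± 0.13 SE, limma adjusted p = 0.000514, and 1.10 ± 0.13, adjusted p = 0.00111), on 19 to 128 reads per library.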

How the data were processed

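Seedling RNA was sequenced in 9 libraries, 3 each of WT, aar2-1 and aar2-2, grouped and numbered from the sample titles. Per the labels' protocols, TRI Reagent was used for RNA and a NEBNext Ultra II kit for the libraries. The authors deposited 1 table per library with CPM values, a unit read from the values. Per the submitters' processing notes, featureCounts 1.64, DESeq2 and the TAIR10 build were used, with no role or strand setting given.

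In each library the deposited CPM values rose in steps of 0.0284 to 0.0409 CPM, 1 step being 1 read, which gave the reads behind them. At least 99.86% of values were whole within 0.01 read. Of 22903 locus codes 22767 matched a locus tag of the RefSeq annotation of TAIR10.1, which gave names, introns, overlaps and promoters; the authors' annotation may place genes differently. Shared 50-base stretches were counted over all annotated transcripts. In 8 members exons lie over another listed gene on the other strand. They are HTA13, GAMMA-H2AX, HTA12, HTA9, HTB9, AT5G02570, AT1G06760 and AT2G30620. AT3G27360 overlaps AT3G27380 on the same strand. The main test, run under R 4.3.3, was limma 3.58.1 (lmFit, then trended eBayes) on log2(CPM + 1). It covered 18838 genes at a mean of 1 CPM or more, with all 9 libraries in 1 fit and no replicate block. P-values were adjusted over all these genes after Benjamini and Hochberg, with calls made at an adjusted p under 0.05. The added 1 CPM makes changes of low genes look smaller. The procedure was tested on simulated data.

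Members, lists and tests were chosen with earlier results of these data known. Values in every library are given for members called in either mutant, for the member with the highest CPM per kb in each family and for AAR2, and of the other lists for at most 4 genes called in both mutants; further genes are named with fewer values, after these were seen. Replicate pairs differed by more than counting noise (chi-square per degree of freedom 4.41 to 40.6). The 18 alternatives were a pseudocount of 0.1, no filter, quantile normalization, TMM scaling, a replicate block, only the 2 groups compared, no trend, edgeR 4.0.16 and DESeq2 1.42.0 on the recovered reads, and leaving out each of 9 libraries.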

Additional observations from a re-analysis of the deposited data

How the results depend on the processing

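Leaving out 1 library at a time gave 2 to 9 histone genes changed in aar2-1, against 10, and 2 to 8 in aar2-2, against 6. Of the calls, those of AT2G28720 and HTB9 in aar2-1 and of HTA6 and HIS1-3 in aar2-2 held in all 18 alternatives, and no called difference of a named gene changed sign. The summed level of variant members in aar2-1 relative to WT was 0.971, and 0.951 with quantile normalization. By the TMM factors the aar2-1 and WT libraries would overlap in this sum. Between the mutants the count of histone genes stayed at 0 throughout; over all genes it was 4, but 411 with DESeq2 and 176 without aar2-1 replicate 2, and the cause was not tested. Without WT replicate 1 the count over all genes fell from 4732 to 2341 in aar2-1 and from 4046 to 1746 in aar2-2.

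Replicate numbers are shared between genotypes. Deviations of same-numbered libraries correlated at −0.0444 to 0.223 between aar2-1 and WT and at −0.191 to 0.263 between aar2-2 and WT, and at −0.173 to 0.518 between the mutants, where replicate 3 gave the highest value. Differently numbered libraries correlated at −0.248 to 0.0583, −0.316 to 0.360 and −0.571 to 0.482 in the same order. As not every same-numbered pair was over 0.1, the main fit took the libraries to share only a number. With deviations taken within 3 libraries per group, this rule cannot exclude a shared batch. In a fit blocked on the replicate number, the histone calls numbered 9 for aar2-1 and 6 for aar2-2, beside 4790 and 3966 over all genes. HTB4 in aar2-1 (adjusted p = 0.0565) and HTA13 in aar2-2 (0.0525) then missed the threshold in limma.

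Depth limits the lowest members: AT3G09480 had 38 to 74 reads per library and AT5G02570 13 to 27.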

Other observations

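HTA4 (AT4G13570), an H2A-type gene outside the 41 members and under the mean of 1 CPM, was picked out after its values were seen. It was at 0.940, 1.01 and 0.907 CPM in WT, at 0.0682, 0.240 and 0.319 CPM in aar2-1, and at 0.309, 0 and 0.198 CPM in aar2-2, so all 6 mutant libraries lay below WT on at most 28 reads per library. With no filter on low values, limma gave −0.70 ± 0.11 SE in aar2-1 (adjusted p = 0.00293) and −0.75 ± 0.11 in aar2-2 (adjusted p = 0.00298) on the log2(CPM + 1) scale. HTR11, an H3-type gene at a similar WT level, rose in the same libraries.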
